A study of Mus musculus with 10 samples.

Results

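The core pluripotency transcription factors examined here are the products of 10 genes, Nanog, Pou5f1, Sox2, Klf4, Klf2, Esrrb, Tfcp2l1, Zfp42, Tbx3 and Nr0b1. Each gene was found by its symbol among the listed transcripts, and all 10 genes had 1 coding transcript each, among 14534 coding transcripts of 15269 listed in all. The cells were CGR8, an embryonic stem (ES) cell line from mouse strain 129, grown without feeder cells in medium with leukemia inhibitory factor, the cytokine that keeps mouse ES cells undifferentiated. Ribosome footprints, the pieces of mRNA that a ribosome shields from RNAse, were sequenced from cells without inhibitor, after DMDA-PatA at 1 µM for 10 min, after harringtonine at 2 µg/ml for 10 min and after puromycin at 0.2 mg/ml for 20 min, with 2 libraries each. RNA from lysates of untreated cells, cleared of nuclei, gave 2 whole transcriptome libraries, and the solvent DMSO was brought to the same amount in all samples. DMDA-PatA is a pateamine A analog that targets the initiation factor eIF4A, harringtonine stops ribosomes as they begin elongation, and puromycin ends growing peptide chains early. All cells come from a single line. The methods call the replicates biological without saying how they were separated, and p-values measure the spread between these libraries.

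Pluripotency is held by a network of transcription factors that bind each other's genes. Pou5f1 (Oct4), Sox2 and Nanog form its core. Klf2, Klf4, Tbx3, Esrrb and Tfcp2l1 link the core to the signals of naive ES cells, and Zfp42 (Rex1) and Nr0b1 (Dax1) are members and widely used markers of the same state. Loss of Pou5f1, Sox2 or Esrrb function, among others, is known to disturb self-renewal, and forced Pou5f1, Sox2 and Klf4 take part in reprogramming of somatic cells.

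On the coding sequence (CDS) of all coding transcripts, the control footprint libraries held 9104220 and 10614247 reads, the 6 drug libraries 618334 to 1944784 reads, and the transcriptome libraries 16649611 and 38046741 reads. Libraries of DMDA-PatA treated cells were the shallowest. As a check of the labelled cell type, all 8 ES cell markers examined were found in the transcriptome, at 160 to 10409 normalized reads per kb of CDS. The highest value, 10409, was that of Zfp42, which is itself among the factors described here, so the check is not independent of them. The summed level of the 8 ES cell markers, Zfp42 included, was 29416 and 27739 reads per kb in the 2 libraries. Markers of primed epiblast summed to 2642 and 2668, of mesendoderm to 2551 and 2775, of neuroectoderm to 2132 and 1810.0, of trophectoderm to 1671 and 1358 and of primitive endoderm to 525 and 447. The 6 fibroblast markers reached a summed level of 68881 and 70450 reads per kb, of which Col1a1 and Acta2 held most, while Dcn and Lum lay at 14.4 to 27.3. The median of the 6 fibroblast markers was 3560 reads per kb, beside 3512 for the 8 ES cell markers. The part of other cell types in the results was not tested, and in bulk samples fewer cells of a type cannot be told apart from less RNA per cell.

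The bases around the annotated starts are given here because the 5' UTR and CDS reads are divided at this codon. Capitals mark the start codon, and 12 bases are shown on each side, 5' to 3' on the transcript strand, read from the GRCm38 genome at the start the files use.
Nanog, chr6:122707846-122707872, plus strand: aacgcctcatcaATGcctgcagttttt
Pou5f1, chr17:35506088-35506114, plus strand: cccaccttccccATGgctggacacctg
Sox2, chr3:34650404-34650430, plus strand: cccagcgcccgcATGtataacatgatg
Klf2, chr8:72319066-72319092, plus strand: acagtccctgccATGgcgctcagcgag
Esrrb, chr12:86470147-86470173, plus strand: ctgctgaaccgaATGtcgtccgaagac
Zfp42, chr8:43296448-43296474, minus strand: agctaagacaacATGaatgaacaaaaa
A purine stands 3 bases before the AUG, a position that favours start recognition, in 4 of the 10 transcripts (Klf2, Tfcp2l1, Zfp42 and Nr0b1), and a G follows the AUG in 3 (Pou5f1, Klf2 and Nr0b1).

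The listed Nanog start lies in exon 2 of its transcript. Of the 90 nt of its listed 5' UTR, 46 nt are coding in 1 other GENCODE M21 transcript of Nanog, whose start lies upstream, so that reads there cannot be told apart as 5' UTR or CDS reads. In Esrrb, 13 of the 42 nt of 5' UTR are coding in 3 other transcripts. For none of the other 8 genes did coding bases of another transcript of the gene overlap the 5' UTR.

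The 5' UTRs differ widely in length, from 37 nt in Nr0b1, 42 nt in Esrrb and 45 nt in Klf2 to 405 nt in Zfp42, 411 nt in Sox2, 595 nt in Klf4 and 998 nt in Tbx3. In the listed transcripts, the only ones searched, an AUG upstream of the CDS is found in 3 of the 10, namely Klf4 (1), Zfp42 (1) and Tbx3 (2). Each of these 4 AUGs opens a short reading frame that ends within the 5' UTR. The 2 of Tbx3 begin at -226 and -98 from the CDS start and run for 11 and 4 codons. With 9 bases on each side of the AUG in capitals, they read as follows.
Tbx3 AUG at -226, chr5:119671781-119671801, plus strand: gcagcggctATGtctccagat
Tbx3 AUG at -98, chr5:119671909-119671929, plus strand: aacaaaactATGcgtcgctgt
The 5' UTR of Sox2 holds no AUG, whereas 86.0% of 1432 coding 5' UTRs within 20% of its length hold at least 1. Only 11 of the 411 nt of Sox2 are in its GENCODE M21 transcript. The bases before them were read from the adjoining genome as if unspliced, whereas the compared 5' UTRs are annotated ones. Across 11161 coding 5' UTRs with a sequence the share is 52.1%. These matches are descriptions of the letters alone.

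Reads with several matches in the genome were left out by the authors, which bears on genes with near-identical copies elsewhere. Of all 30-nt windows of the CDS, 31.1% in Zfp42, 27.5% in Nanog, 21.5% in Pou5f1, 5.21% in Klf4, 2.26% in Sox2 and 0.236% in Esrrb match the genome more than once, and none in the other 4 genes. In the Zfp42 5' UTR this share is 42.8%. The counts of Zfp42, Nanog and Pou5f1 are uncertain for this reason. Windows across exon joins have no match in the genome, and these were most frequent in Tfcp2l1 at 26.6% of its CDS windows. An antisense gene, Gm19553, overlaps 288 nt of the Pou5f1 CDS, and Tbx3os1 overlaps 115 nt of the Tbx3 5' UTR on the other strand.

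In untreated cells all 10 mRNAs carried footprints on the CDS, and their density per length spanned a wide range. Values in this paragraph are normalized footprints per kb of CDS as mean ± SD (n = 2). Zfp42, a zinc finger protein, had the highest density at 8724 ± 1614, followed by the POU factor Pou5f1 at 5285 ± 236. The Krüppel-like factor Klf2 stood at 4756 ± 400.2, the homeobox factor Nanog at 4351 ± 567, the orphan nuclear receptor Esrrb at 3670.5 ± 518 and the HMG box factor Sox2 at 3556 ± 268. A lower group was formed by the nuclear receptor Nr0b1 at 1103 ± 91.1 and the grainyhead-like factor Tfcp2l1 at 836 ± 141. Klf4 at 287 ± 30.0 and the T-box factor Tbx3 at 280.0 ± 69.0 were lowest. The libraries of Klf2 and Nanog, of Nanog and Esrrb, of Esrrb and Sox2, and of Klf4 and Tbx3 overlapped, so that these neighbours did not differ beyond their spread. The other neighbours in this order did not overlap.

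On the RNA side the order was different below the leading pair. Whole transcriptome reads per kb of CDS, normalized between the 2 libraries, were 10409 ± 306 (SD, n = 2) for Zfp42, 8045 ± 1071 for Pou5f1, 4619.6 ± 549.6 for Sox2 and 3305 ± 346 for Nanog. Esrrb had 2697 ± 0.971 and Klf2 2119 ± 436. Tfcp2l1 (1104 ± 174) and Nr0b1 (1086 ± 26.4) overlapped, and Klf4 (913 ± 144) and Tbx3 (452 ± 58.5) had the fewest. Klf4 therefore had more RNA per length than Tbx3 in both libraries, while their footprint densities overlapped. Klf2 held rank 6 by RNA and rank 3 by footprints. Densities and ranks were not corrected for CDS windows with several genome matches, 31.1% in Zfp42, 27.5% in Nanog and 21.5% in Pou5f1.

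Translation efficiency asks how many footprints an mRNA carries for its RNA reads. It was tested as the log2 ratio of CDS footprints to CDS transcriptome reads with each library scaled to its total of coding CDS reads, and the median over all coding transcripts tested was -0.19. Of the 10 factors, 9 lay above 0 and 1 below, all with an adjusted p below 0.05, where 29.7% of 14017 tested transcripts were called higher and 41.1% lower. Klf2, with 4539 and 5240 footprint reads against 1673 and 2964 transcriptome reads, had the highest value of the 10, 2.48 ± 0.12 (SE, adjusted p = 8.83e-10). This lay above 98.9% of the coding transcripts tested. Esrrb followed at 1.75 ± 0.10 and Nanog at 1.70 ± 0.10, above 96.8% and 96.6% of coding transcripts. Nr0b1 stood at 1.33 ± 0.10, Zfp42 at 1.05 ± 0.10, Sox2 at 0.94 ± 0.11, Tfcp2l1 at 0.91 ± 0.12, Pou5f1 at 0.71 ± 0.11 and Tbx3 at 0.61 ± 0.13.

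Klf4, with 379 and 425 footprint reads against 954 and 1811 transcriptome reads, was the exception at -0.36 ± 0.12 (SE, adjusted p = 0.0191). Its call did not hold with other scalings: it stood at -0.21 with an adjusted p of 0.14 under TMM and at -0.19 with an adjusted p of 0.30 under DESeq2. It was also lost without replicate 2 of the control footprints (-0.33, adjusted p = 0.076) and without replicate 1 of the control transcriptome (-0.22, adjusted p = 0.17). Relative to the median of coding transcripts Klf4 thus lay close to the bulk, at the 44.2 percentile. Klf2 and Klf4, Krüppel-like factors that can each support self-renewal, stood at the ends of this order.

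**Figure D1:**
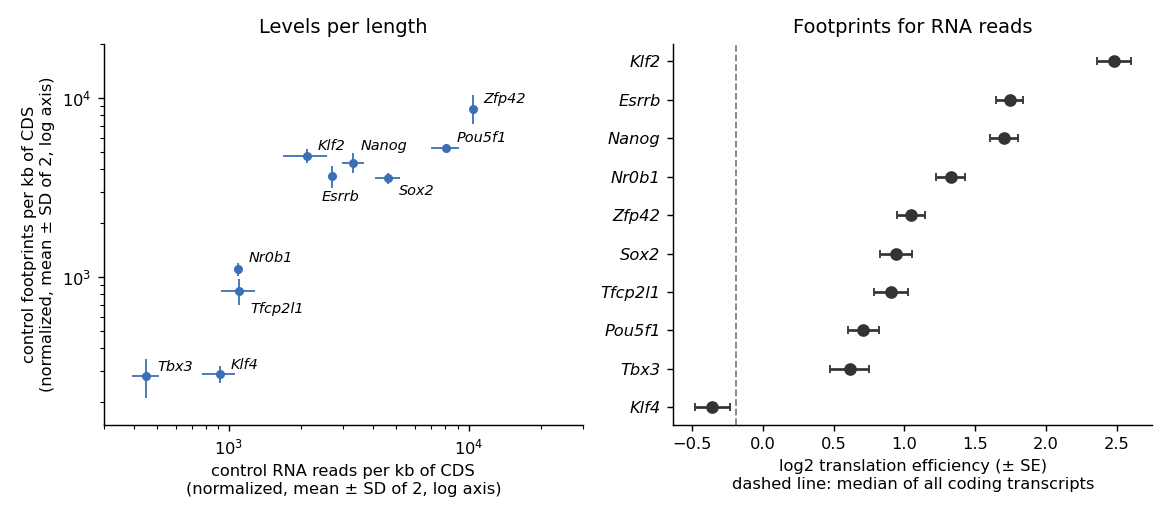
Left, control footprints per kb of CDS against control RNA reads per kb of CDS for the 10 factors, both in normalized reads on log axes, with points at the mean and bars for the SD of 2 libraries. Right, log2 translation efficiency with bars for the SE, where Klf2 is highest at 2.48 and Klf4 lowest at -0.36, and the dashed line marks the median of all coding transcripts at -0.19.

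Footprints on the CDS fell with all 3 drugs for all 10 factors when the libraries were scaled by spike-in reads as the authors did, while with TMM scaling (given below) 3 lay above 0 in DMDA-PatA cells, 3 after harringtonine and 6 after puromycin. This is what nearly all transcripts did: 99.3% of 12499 tested transcripts were called lower and 0.056% higher with DMDA-PatA, 92.9% and 0.512% after harringtonine, and 90.1% and 0.352% after puromycin, so that the direction says nothing particular about these genes. Values below are spike-in normalized reads in replicates 1 and 2. They use the deposited size factors. A supplementary sheet of the study holds transcript values that fit a swap of the factors between harringtonine and DMDA-PatA libraries, and which assignment is right could not be settled here. The values with this exchange are given below for some of the overlaps they alter. On the CDS of Esrrb and Nr0b1, harringtonine and puromycin libraries overlapped with the deposited factors only. With the exchange harringtonine libraries had 843 and 890 reads in Esrrb and 127 and 142 in Nr0b1, all below puromycin. On the 5' UTR of Tfcp2l1, DMDA-PatA libraries overlapped control with the deposited factors and lay above it with the exchange. With the exchange all drug libraries still lay below both controls on the CDS of all 10 genes.

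Nanog carried 3992 and 3319 reads in control, 98.5 and 181 with DMDA-PatA, 798 and 699 after harringtonine and 1089.8 and 931 after puromycin. Sox2 had 3222 and 3585 reads in control, 108 and 127 with DMDA-PatA, 472 and 304 after harringtonine and 1142 and 1045 after puromycin. In both genes DMDA-PatA libraries were lowest, then harringtonine, then puromycin, with no overlap between any of the 4 conditions. Nanog was lower by 26.2-fold, 4.88-fold and 3.62-fold, and Sox2 by 29.0-fold, 8.78-fold and 3.11-fold, in that order of drugs.

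Pou5f1 had 5404 and 5757 reads in control, 515 and 881 with DMDA-PatA, 556 and 375 after harringtonine and 511 and 742 after puromycin. The libraries of the 3 drugs overlapped, and the folds were 8.00, 11.99 and 8.91. With the exchanged factors DMDA-PatA libraries had 827 and 760.2 reads and harringtonine libraries 346 and 435, which no longer overlapped each other or puromycin. The fitted log2 fold change of Pou5f1 with DMDA-PatA was -3.0 ± 0.48 (SE, adjusted p = 5.68e-10), against a median of -4.33 over all coding transcripts.

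Klf2 had 5351 and 4750.0 reads in control, 436 and 767 with DMDA-PatA, 2447 and 1788 after harringtonine and 1555 and 2284 after puromycin. It kept the largest shares of the 10 with harringtonine, 48.5% and 35.4% of the control mean. Klf4 had 447 and 385 reads in control, 14.5 and 10.6 with DMDA-PatA, 54.8 and 52.5 after harringtonine and 119.9 and 145 after puromycin. The DMDA-PatA values of Klf4 rest on 23 and 13 reads. Klf4 was thus lower by 33.2-fold and Klf2 by 8.39-fold with DMDA-PatA, and by 7.76-fold and 2.38-fold with harringtonine. The Klf2 log2 fold change with harringtonine, -1.25 ± 0.46 (SE, adjusted p = 0.00661), lost its call without control replicate 1 (-1.17, adjusted p = 0.072), and that with puromycin, -1.39 ± 0.46 (adjusted p = 0.00292), without puromycin replicate 1 (-1.14, adjusted p = 0.096).

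Esrrb had 5244 and 4292 reads in control, 536 and 842 with DMDA-PatA, 1354 and 767 after harringtonine and 1193 and 1373 after puromycin. Its 6.92-fold decrease with DMDA-PatA was the smallest of the 10. Zfp42 had 8523 and 6551 reads in control, 116 and 109 with DMDA-PatA, 573 and 329.7 after harringtonine and 747 and 731 after puromycin. Its folds of 67.2, 16.7 and 10.2 were the largest of the 10 with each drug.

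The remaining genes lay between these ends. Tfcp2l1 had 1344 and 1058 reads in control, 28.4 and 44.6 with DMDA-PatA, 108 and 64.4 after harringtonine and 124 and 144 after puromycin. Nr0b1 had 1653 and 1470.3, 56.2 and 106, 204 and 122, and 190.2 and 219 reads in the same order. Tbx3 had 731 and 514, 18.3 and 27.6, 87.3 and 48.3, and 119.9 and 128 reads. In each of these 3 genes DMDA-PatA libraries were below those of the other drugs, and all drug libraries were below control.

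**Figure D2:**
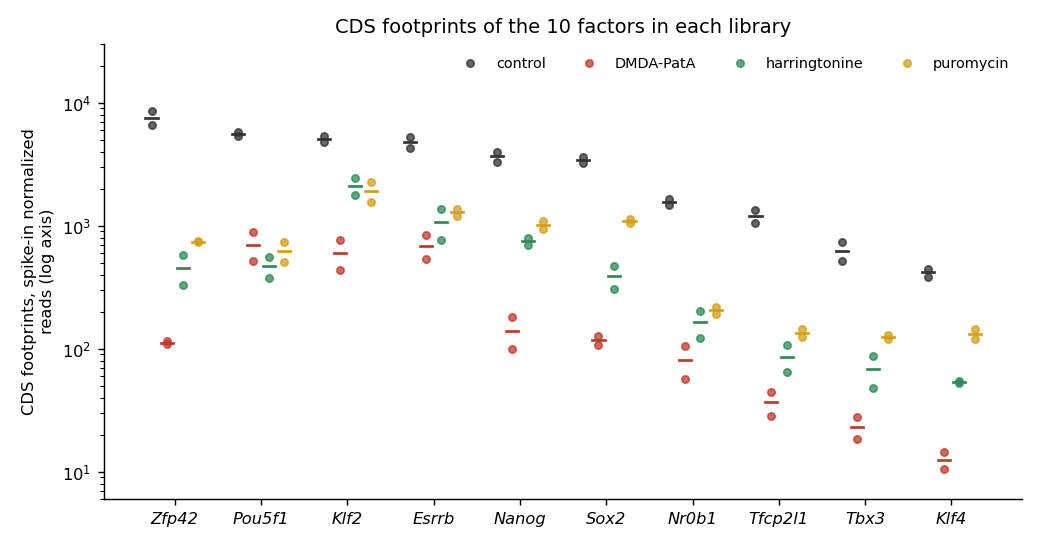
CDS footprints of the 10 factors in each footprint library, in spike-in normalized reads on a log axis, with a point per library and a short line at the mean of the 2 libraries of a condition. On this scale all drug libraries lie below control (with TMM scaling some genes lie above 0), and the 3 drugs overlap in Pou5f1 with the deposited size factors, with folds of 8.00, 11.99 and 8.91.

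Since nearly every CDS lost footprints, the libraries were also scaled by TMM, which sets the bulk of transcripts to no change and asks whether a gene lost more or less than the bulk. On this scale the median of all coding transcripts was -0.13 for DMDA-PatA and for harringtonine and -0.05 for puromycin. The 10 factors did not move as a group. With DMDA-PatA 3 were higher, 3 lower and 4 not called, where 18.8% of 12499 transcripts were called higher and 23.6% lower. With harringtonine 3 were higher, 3 lower and 4 not called, against 26.6% and 30.0% of transcripts. With puromycin 5 were higher, 4 lower and 1 not called, against 24.3% and 24.9%. The median of the 10 was -0.53, -0.32 and 0.35, respectively.

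Zfp42 and Tfcp2l1 lost more footprints than the bulk with all 3 drugs. For Zfp42 the log2 fold changes relative to the bulk were -1.79 ± 0.21, -1.21 ± 0.20 and -0.89 ± 0.20 for DMDA-PatA, harringtonine and puromycin (SE, adjusted p = 1.91e-06, 3.59e-05 and 0.00107). For Tfcp2l1 they were -0.82 ± 0.20, -0.95 ± 0.19 and -0.69 ± 0.19 (adjusted p = 0.00267, 0.00019 and 0.00455), the last of which was lost without control replicate 1 (-0.60, adjusted p = 0.074) and without puromycin replicate 1 (-0.54, adjusted p = 0.064). Among coding transcripts whose CDS is within 20% of the length of Zfp42, 7.07%, 10.4% and 7.95% lay below it in the same order of drugs.

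Klf2 and Esrrb lost fewer footprints than the bulk with all 3 drugs. Klf2 stood at 1.13 ± 0.21, 1.63 ± 0.21 and 1.06 ± 0.21 relative to the bulk with DMDA-PatA, harringtonine and puromycin (SE, adjusted p = 0.000238, 1.7e-06 and 0.000297). Esrrb stood at 1.42 ± 0.18, 0.67 ± 0.18 and 0.56 ± 0.18 (adjusted p = 4.63e-06, 0.0034 and 0.014). The Esrrb call with harringtonine was lost without control replicate 2 (0.61, adjusted p = 0.063), and that with puromycin without control replicate 1 (0.63, adjusted p = 0.062), control replicate 2 (0.50, adjusted p = 0.14) or puromycin replicate 2 (0.48, adjusted p = 0.077).

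Pou5f1 changed sides between drugs. Relative to the bulk it was higher with DMDA-PatA at 1.19 ± 0.20 (SE, adjusted p = 8.64e-05) and lower with harringtonine at -0.72 ± 0.20 (adjusted p = 0.0047) and puromycin at -0.70 ± 0.20 (adjusted p = 0.00701). The call with harringtonine was lost without control replicate 2 (-0.59, adjusted p = 0.07) and without harringtonine replicate 1 (-0.56, adjusted p = 0.065), and that with puromycin without control replicate 2 (-0.58, adjusted p = 0.09) and without puromycin replicate 1 (-0.40, adjusted p = 0.16). The value with DMDA-PatA stayed between 1.07 and 1.33 over all settings tried. It lay above 90.5% of the 2522 coding transcripts with a CDS within 20% of the length of Pou5f1, whereas with harringtonine 22.7% and with puromycin 14.3% of those lay below Pou5f1.

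Nanog had the opposite signs. It stood at -0.52 ± 0.21 with DMDA-PatA, which was not called (SE, adjusted p = 0.0575) but was without the filter on low counts (-0.56, adjusted p = 0.021), and was higher with harringtonine at 0.64 ± 0.20 (adjusted p = 0.0116) and with puromycin at 0.60 ± 0.21 (adjusted p = 0.0198). The harringtonine call was lost without control replicate 2 (0.58, adjusted p = 0.09) or harringtonine replicate 2 (0.37, adjusted p = 0.16). The puromycin call was lost without either control replicate (0.66 and 0.55, adjusted p = 0.064 and 0.13) or without puromycin replicate 1 (0.55, adjusted p = 0.072).

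With puromycin Sox2 and Klf4 were higher relative to the bulk, at 0.81 ± 0.19 (SE, adjusted p = 0.00132) and 0.82 ± 0.23 (adjusted p = 0.00596). With DMDA-PatA Sox2 was lower at -0.62 ± 0.20 (adjusted p = 0.0155), a call that was lost with equal total CDS reads per library (-0.48, adjusted p = 0.06) and without control replicate 2 or DMDA-PatA replicate 2 (-0.45 in both, adjusted p = 0.19). Klf4 had -0.76 ± 0.31 with DMDA-PatA (adjusted p = 0.0567), a value that was called at -1.35 (adjusted p = 0.024) without DMDA-PatA replicate 1 and at -0.81 (adjusted p = 0.018) without a filter on low counts. The puromycin call of Klf4 was lost without control replicate 2 (0.79, adjusted p = 0.05) and without puromycin replicate 2 (0.68, adjusted p = 0.099).

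Nr0b1 was lower with puromycin at -0.47 ± 0.18 (SE, adjusted p = 0.0388), and this was lost without any 1 of the 4 libraries compared (adjusted p = 0.067 to 0.26) and with DESeq2 size factors (-0.42, adjusted p = 0.068). With DMDA-PatA and harringtonine Nr0b1 had -0.08 ± 0.19, a sign that changed with equal total CDS reads (0.05), and -0.41 ± 0.18. Tbx3 was not called with any drug, at -0.53 ± 0.23, -0.35 ± 0.20 and 0.14 ± 0.20, and its 95% intervals reached from -0.98 to -0.08, from -0.74 to 0.03 and from -0.24 to 0.53. With equal total CDS reads per library the harringtonine values of Tbx3 (-0.50, adjusted p = 0.035) and Nr0b1 (-0.56, adjusted p = 0.01) were called.

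**Figure D3:**
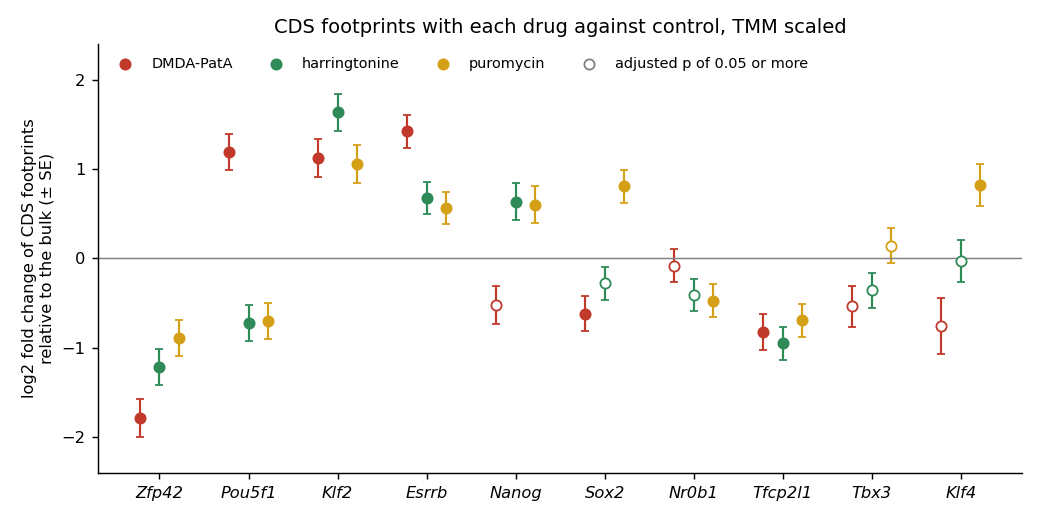
Log2 fold change of CDS footprints relative to the bulk of transcripts for the 10 factors and the 3 drugs, with bars for the SE, filled points for an adjusted p below 0.05 and open points for the rest. Zfp42 and Tfcp2l1 lie below 0 and Klf2 and Esrrb above 0 with all 3 drugs, and Pou5f1 lies at 1.19 with DMDA-PatA against -0.72 and -0.70 with harringtonine and puromycin.

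The drugs were then compared directly on the same scale, in contrasts chosen after the data were seen. Doses differed between all drugs and the time between puromycin (20 min) and the others (10 min). Pou5f1 kept 1.91 ± 0.21 more on the log2 scale with DMDA-PatA than with harringtonine (SE, adjusted p = 7.32e-07) and 1.89 ± 0.21 more than with puromycin (adjusted p = 7.22e-07). These values lay above 97.0% and 95.8% of coding transcripts, and stayed between 1.81 and 2.20 and between 1.66 and 2.17 over all settings tried. Esrrb was likewise higher with DMDA-PatA, by 0.75 ± 0.18 against harringtonine (adjusted p = 0.00322) and by 0.86 ± 0.18 against puromycin (adjusted p = 0.000999). Nanog was lower with DMDA-PatA by -1.15 ± 0.22 (adjusted p = 0.00032) and -1.12 ± 0.22 (adjusted p = 0.000408), respectively.

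Against harringtonine the tally was 2 higher and 2 lower with DMDA-PatA, where 15.8% and 18.0% of transcripts were called. Beside Nanog the lower gene, Zfp42, had -0.57 ± 0.21 (SE, adjusted p = 0.0446), and this was lost with equal total CDS reads (-0.28, adjusted p = 0.34), without either harringtonine replicate (-0.55 and -0.57, adjusted p = 0.10 and 0.093) and without DMDA-PatA replicate 2 (-0.27, adjusted p = 0.44). Against puromycin 2 were higher and 5 lower with DMDA-PatA, where 17.8% and 19.1% of transcripts were called. Klf4 (-1.58 ± 0.32), Sox2 (-1.43 ± 0.20), Nanog, Zfp42 (-0.90 ± 0.21) and Tbx3 (-0.68 ± 0.25) were the 5 lower genes. The Tbx3 call (adjusted p = 0.0392) was lost with equal total CDS reads (-0.53, adjusted p = 0.11) and without any 1 of the 4 libraries compared (adjusted p = 0.063 to 0.14), and that of Zfp42 (adjusted p = 0.00258) without DMDA-PatA replicate 2 (-0.59, adjusted p = 0.078).

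Between puromycin and harringtonine 3 factors differed, 2 higher and 1 lower with puromycin, where 12.6% and 13.2% of transcripts were called. Sox2 was higher with puromycin by 1.09 ± 0.19 (SE, adjusted p = 0.000339) and Klf4 by 0.85 ± 0.26 (adjusted p = 0.0206). Klf2 was lower by -0.57 ± 0.21 (adjusted p = 0.0474). The Klf4 call was lost without harringtonine replicate 1 (0.54, adjusted p = 0.18) or puromycin replicate 2 (0.71, adjusted p = 0.17), and the Klf2 call with equal total CDS reads (-0.43, adjusted p = 0.12) and without harringtonine replicate 2 (-0.38, adjusted p = 0.27) or puromycin replicate 1 (-0.32, adjusted p = 0.35). Pou5f1 and Nanog had differences of 0.02 ± 0.21 and -0.03 ± 0.21 between these drugs, both of which changed sign under other settings.

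Footprints on the 5' UTR behaved differently from those on the CDS. In untreated cells the 5' UTR density of Sox2 was 3439 ± 4.09 normalized reads per kb (SD, n = 2), or 96.7% of its CDS density. Tbx3 had 185 ± 43.7 reads per kb, 66.2% of its CDS density. Nanog (17.1%), Klf4 (10.1%) and Zfp42 (9.45%) followed, and in Tfcp2l1, Pou5f1, Esrrb, Klf2 and Nr0b1 the 5' UTR density was at most 2.26% of that on the CDS. The Nanog value can include CDS reads, since 46 of the 90 nt are coding in another Nanog transcript.

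The share of reads in the 5' UTR shows this in each library. In Sox2 the 5' UTR held 30.5% and 28.3% of the 5' UTR and CDS reads in control, 89.6% and 91.4% with DMDA-PatA, 86.5% and 88.3% after harringtonine and 59.7% and 53.9% after puromycin. In Tbx3 the shares were 22.8% and 23.1%, 85.1% and 85.8%, 81.7% and 84.1%, and 66.5% and 64.1% in the same order. In Zfp42 they were 3.81% and 4.81%, 54.5% and 55.5%, 36.9% and 55.1%, and 30.8% and 29.1%. In these 3 genes each drug library lay above both control libraries, and the same held in Nanog, Pou5f1, Klf4, Esrrb and Tfcp2l1. Over all coding transcripts the share was 4.01% and 4.27% in control, 38.2% and 38.6% after DMDA-PatA, 29.1% and 32.8% after harringtonine and 20.4% and 17.7% after puromycin. In the transcriptome the 5' UTR held 37.5% and 34.2% of the Sox2 reads and 22.1% and 18.0% of the Tbx3 reads, close to the shares of their control footprints, against 4.18% and 3.97% over all coding transcripts.

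**Figure D4:**
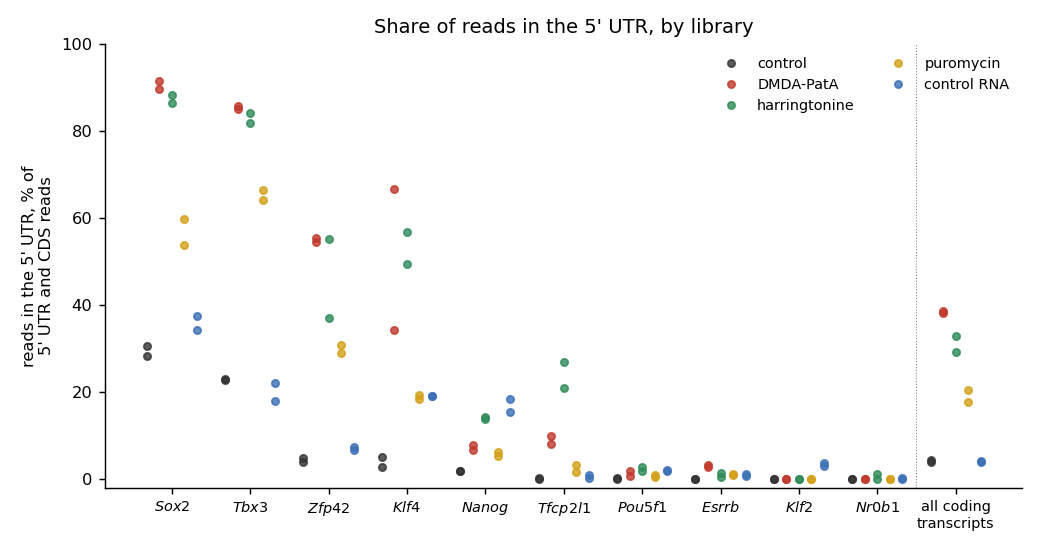
Reads in the 5' UTR as a percentage of 5' UTR and CDS reads for the 10 factors and for all coding transcripts together, with a point per library. Sox2 and Tbx3 have the highest control shares, 30.5% and 28.3%, and 22.8% and 23.1%, and exceed 80% with DMDA-PatA and harringtonine, while Klf2 and Nr0b1 stay near 0 in all footprint libraries.

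Enough 5' UTR reads for a test were found in 8 of the 10 factors, since Klf2 and Nr0b1 had at most 2 reads in any footprint library. The ratio of 5' UTR to CDS footprints, tested within libraries and hence free of the scaling between them, was higher with each of the 3 drugs in all 8. This was the background: 93.2% of 6554 transcripts were called higher and 0.137% lower with DMDA-PatA, 95.0% and 0.153% after harringtonine, and 78.0% and 0.137% after puromycin. With DMDA-PatA the log2 change of the ratio ran from 2.10 ± 0.42 in Nanog and 3.38 ± 0.62 in Pou5f1 over 4.31 ± 0.39 in Tbx3, 4.52 ± 0.35 in Sox2, 4.69 ± 0.60 in Klf4 and 4.77 ± 0.39 in Zfp42 to 5.65 ± 0.91 in Tfcp2l1 and 6.77 ± 0.68 in Esrrb, around a median of 4.34 over coding transcripts. With harringtonine it ran from 3.15 ± 0.35 in Nanog to 7.29 ± 0.64 in Tfcp2l1, and with puromycin from 1.66 ± 0.33 in Sox2 to 5.20 ± 0.82 in Esrrb. Tfcp2l1, Esrrb and Pou5f1 reached 10 reads on the 5' UTR only in drug libraries, so the filter itself favoured a rise of their ratios. The upper ends of these ranges, at Tfcp2l1 and Esrrb, are therefore no independent result. The 5' UTRs of Nanog and Esrrb are in part coding in other transcripts, so that their ratios may not part 5' UTR from CDS reads. The puromycin calls of Tfcp2l1 and Pou5f1 were lost without puromycin replicate 1 (3.17, adjusted p = 0.072) and replicate 2 (1.84, adjusted p = 0.38), respectively.

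On the spike-in scale the 5' UTR footprints themselves were tested in the same 8. With DMDA-PatA 2 were lower and 1 higher, near the background of 28.9% and 14.6% of 6712 transcripts called. A value that was not called does not show that the footprints stayed the same. Sox2 had 1415 and 1412 reads in control and 931 and 1347 with DMDA-PatA, a log2 fold change of -0.31 ± 0.43 (SE, adjusted p = 0.581) with a 95% interval from -1.15 to 0.53. Its DMDA-PatA libraries lay below both controls, but overlapped them at 1497 and 1161 reads with the exchanged factors, while its CDS had lost 29.0-fold (24.1-fold with the exchange). Tbx3 had 216 and 154 reads in control and 105 and 167 with DMDA-PatA (-0.44 ± 0.45, adjusted p = 0.439).

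Nanog was lower with DMDA-PatA, with 74.3 and 59.8 reads in control and 6.94 and 15.4 with the drug, a log2 fold change of -2.60 ± 0.54 (SE, adjusted p = 1.75e-05). It lay lower than all but 7.7% of the coding 5' UTRs tested, and 46 of its 90 nt are coding in the other Nanog transcript. Zfp42 was also lower, with 337 and 331 reads against 138 and 136 (-1.29 ± 0.45, adjusted p = 0.0127), a call lost without control replicate 1 (-1.27, adjusted p = 0.087) or 2 (-1.30, adjusted p = 0.078). Esrrb was higher, from 0 and 2 reads in control to 29 and 30 reads with DMDA-PatA. The ratio of its normalized reads was 20.4, with an exact 95% interval of the counting error from 5.41 to 173. Directions on the spike-in scale depend on the size factors: with the TMM factors of the CDS reads all 8 were called higher with each drug, Nanog at 1.59 with DMDA-PatA included. This was the background of that scaling, which called 6332, 6506 and 5916 of 6712 transcripts higher with DMDA-PatA, harringtonine and puromycin.

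With harringtonine 3 of the 8 were higher on the 5' UTR and none lower, where 34.8% of transcripts were called higher and 5.18% lower. Tfcp2l1 rose from 0 and 4 reads to 28 and 34 reads (log2 fold change 3.62 ± 0.82, SE, adjusted p = 0.000107). It reached 10 reads in the harringtonine libraries alone, so it was tested only because it was high there. The adjusted p does not account for this. Klf4 rose from 23.6 and 10.9 to 72.0 and 51.1 normalized reads (1.85 ± 0.55, adjusted p = 0.00364), a call lost without control replicate 2 (1.38, adjusted p = 0.17). Esrrb had 20 and 5 reads against 0 and 2 in control, a ratio of 10.1 with an exact 95% interval from 2.52 to 88.0, and its call (adjusted p = 0.00287) was lost without control replicate 1 (2.56, adjusted p = 0.079) and without harringtonine replicate 1 (1.68, adjusted p = 0.34). Sox2 had 3028 and 2299 normalized reads, above both control libraries, at 0.91 ± 0.43 (adjusted p = 0.0751), and was called by DESeq2 (0.91, adjusted p = 0.032).

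With puromycin Esrrb alone was called on the 5' UTR, where 0.566% of transcripts were called higher and 0.417% lower. As said above, Esrrb passed the filter through drug libraries alone. It had 5 and 13 reads against 0 and 2 in control, a ratio of 13.6 with an exact 95% interval from 3.27 to 121 (adjusted p = 0.0327), and the call was lost without any 1 of the 4 libraries (adjusted p = 0.10 to 0.55). Sox2 (1689.5 and 1219.8 normalized reads), Zfp42 (333 and 299.7) and Nanog (62.0 and 60.9) stood at log2 fold changes of 0.04 ± 0.43, -0.08 ± 0.44 and -0.12 ± 0.49.

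Few footprints were found on the 3' UTR, whose column includes the stop codon. Nanog, Klf4, Zfp42, Tbx3 and Nr0b1 had at most 9 reads in any footprint library, with 75 to 1472 transcriptome reads, and Tfcp2l1 had 7 to 32 footprint reads with 7324 and 15467 transcriptome reads. Pou5f1 and Esrrb had 0 reads in all 10 libraries. The Esrrb transcript has 3 nt there. For Pou5f1 the zero holds for the transcriptome too, although its 3' UTR has 224 nt and its CDS had 6032 and 11860 transcriptome reads, so that this column gives no measure of the Pou5f1 3' UTR.

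A wider set of pluripotency genes was used to place the 10. Of 24 other transcription factors and cofactors, 23 were listed and tested (Rif1 was not among the coding transcripts), and all 14 of a list of target genes and surface proteins of pluripotent cells were tested. Translation efficiency was higher in 17 and lower in 4 of the 23 regulators, and higher in 11 and lower in none of the 14 targets, where 29.7% of all transcripts were called higher and 41.1% lower. The medians were 0.86 and 0.93, beside 0.99 for the 10 factors and -0.19 for all coding transcripts.

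Relative to the bulk, 13 of the 23 regulators were lower and none higher with DMDA-PatA (median -0.72), 8 lower and 3 higher with harringtonine (-0.44) and 5 lower and 2 higher with puromycin (-0.09). Over all transcripts 23.6% were lower and 18.8% higher with DMDA-PatA, 30.0% and 26.6% after harringtonine, and 24.9% and 24.3% after puromycin, so that the lower counts after harringtonine and puromycin were near the background. The lowest with DMDA-PatA was the homeobox factor Gbx2, which went from 354 and 296 normalized reads to 2.53 and 1.62 (log2 fold change relative to the bulk -2.98 ± 0.45, SE, adjusted p = 2.38e-05). With harringtonine and puromycin it was the corepressor Trim28, from 46175 and 42215 reads to 1145 and 586 with harringtonine and to 949 and 1246 with puromycin (-2.86 ± 0.22 and -2.88 ± 0.22). The highest with each drug was Otx2, a factor of the primed state with 30.7 and 31.7 reads in control, at 1.24 ± 0.58 (adjusted p = 0.0941), 1.57 ± 0.41 (adjusted p = 0.00291) and 2.54 ± 0.38 (adjusted p = 1.64e-05).

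Of the 14 targets, 5 were lower and 5 higher with DMDA-PatA (median -0.47), 4 lower and 5 higher with harringtonine (0.08) and 5 lower and 6 higher with puromycin (0.38), beside the same background of 23.6% lower and 18.8% higher, 30.0% and 26.6%, and 24.9% and 24.3%. The lowest was alkaline phosphatase, Alpl, with DMDA-PatA (-2.04 ± 0.19) and the adhesion protein E-cadherin, Cdh1, with harringtonine and puromycin (-2.68 ± 0.20 and -2.58 ± 0.20). The highest was the Nodal antagonist Lefty1 with DMDA-PatA (1.95 ± 0.24), Tcl1 with harringtonine (2.98 ± 0.19) and Dppa5a with puromycin (2.31 ± 0.20). Dppa5a, an RNA-binding protein of ES cells, had 12298 and 11931 reads in control and 10908 and 10997 with puromycin.

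Finally, the transcripts most like Pou5f1, Nanog and Sox2 were sought among 8077 coding transcripts with at least 100 reads in each control library, by the distance over 4 log2 values (the CDS change with each drug on the spike-in scale and the translation efficiency). For Pou5f1 these were Mrpl39 (distance 0.32) and Riox1 (0.40). For Nanog they were Gsta4 (0.34) and Pycr1 (0.37), and for Sox2 Gmppb (0.22) and Ssu72 (0.27). The 4 values were -3.0, -3.58, -3.15 and 0.71 in Pou5f1 and -3.26, -3.67, -3.0 and 0.64 in Mrpl39, in the order DMDA-PatA, harringtonine, puromycin and translation efficiency.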

How the data were processed

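The members and the gene lists were chosen with earlier results of these data known. The authors aligned SOLiD reads to mm10 with LifeScope, left out reads with several matches, kept footprints of 26 to 36 nt, shifted each read by an offset to the ribosome position and counted reads per region of 1 transcript per gene. The submitters' processing notes also name Picard 1.38. The deposited values are a signal, namely reads divided by DESeq2 size factors, from spike-in reads for footprints and between replicates for the transcriptome. Whole reads were recovered by division, and 100% of the values in each column came out whole (tolerance 0.001). The design had assumed counts, and the count test was run on these reads.

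Tests used edgeR 4.0.16 (quasi-likelihood test, Benjamini-Hochberg adjustment over all listed transcripts, threshold 0.05) in R 4.3.3, on transcripts that reached 10 reads in 2 or more libraries, with the 4 footprint conditions in 1 fit. Library sizes followed the authors' size factors, TMM for changes relative to the bulk, and total coding CDS reads for translation efficiency. The 5' UTR to CDS ratio was a region by drug term with the library as block. The direct comparison of drugs was added after the data were seen. SE is the log2 fold change divided by the root of the F statistic. DESeq2 1.42.0, limma 3.58.1 (pseudocount 1), other scalings, the filter, a replicate block and leaving out each library were alternatives. The steps were tested on simulated data. Genes, other transcripts and starts came from GENCODE M21 on GRCm38, with the 5' end set to the length in the files for Sox2, Zfp42, Tfcp2l1 and Pou5f1. An absent 5' UTR value (656 rows) was taken as 0. Python 3.11.15, numpy 2.4.6, pandas 2.3.3 and matplotlib 3.10.9 were used.

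The 10 genes were named by the rule that found them. From the wider lists the lowest and highest gene per drug relative to the bulk were named, and the 2 nearest patterns for 3 genes. Same-numbered control and drug libraries shared little (correlation of deviations 0.051, 0.028 and 0.0023 for the 3 drugs). Transcriptome RNA was taken from lysates also used for footprints, but the labels do not tie the numbers, and the correlation was 0.0497. Read numbers, and the exact intervals and ratios made from them, cover counting error only.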

Additional observations from a re-analysis of the deposited data

Results flagged for a closer look

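The 3' UTR column was used in no comparison, and 2 genes had more footprints there with harringtonine than in both control libraries, with at least 10 reads in each harringtonine library. That minimum was set on drug libraries alone, and the share of all transcripts that did the same was not counted. Whether 2 genes exceed the background is therefore not known. Klf2 had 14.1 and 14.5 spike-in normalized reads in control and 103 and 69.3 with harringtonine, 6.03 times the control mean. Sox2 had 56.6 and 32.6 reads in control and 123 and 72.1 with harringtonine, 2.18 times the control mean. With DMDA-PatA both genes lay below both controls with the deposited size factors (6.94 and 9.74 reads in Klf2, 29.7 and 28.4 in Sox2). Whether the order of these 3' UTR values holds with the DMDA-PatA and harringtonine factors exchanged was not tested. With puromycin Klf2 had 14.5 and 33.6 reads and Sox2 6.20 and 9.95. No test was run on these values. Groups of 2 libraries are too small for a test of outlying samples.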

How the results depend on the processing

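Over all alternatives, 1146 values of single genes stayed on their side of the threshold, 66 lost the call, 25 gained it and 20 changed sign with a call before or after. Of the 1146, 30 changed sign without a call on either side, such as Klf4 after harringtonine relative to the bulk (0.36 without harringtonine replicate 1) and Nanog for puromycin against harringtonine (0.31 without harringtonine replicate 2). The 20 came from TMM in place of spike-in factors, which sets the bulk to no change by construction. On the CDS it called 6 genes with DMDA-PatA (5299 of all transcripts), 6 with harringtonine (7073) and 6144 of all transcripts with puromycin. It put Pou5f1 at 1.19, Klf2 at 1.13 and Esrrb at 1.42 with DMDA-PatA, Nanog at 0.64, Klf2 at 1.63 and Esrrb at 0.67 with harringtonine, and Nanog at 0.60, Sox2 at 0.81, Klf4 at 0.82, Klf2 at 1.06, Esrrb at 0.56 and Tbx3 at 0.14 with puromycin. On the 5' UTR the TMM factors of the CDS reads called 8 genes with each drug and 6340, 6517 and 5923 of all transcripts, with Nanog at 1.59, Sox2 at 3.91, Klf4 at 3.90, Zfp42 at 2.98 and Tbx3 at 3.77 for DMDA-PatA and Nanog at 2.33, Pou5f1 at 2.15 and Zfp42 at 2.37 for puromycin.

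The 5' UTR calls with puromycin, 66 in all, became 153 with the DMDA-PatA and harringtonine size factors exchanged and 148 with limma, and the cause was not tested. The exchange changed no call of the 10 genes. DESeq2 gave no adjusted p for Esrrb there, so its count is not given. Same-numbered libraries share only a number. A replicate block left 32 calls, and 0 of the 8 genes (Esrrb 3.61, adjusted p = 0.067), moved Klf2 past the threshold for DMDA-PatA against harringtonine (-0.50, adjusted p = 0.043), and changed no other call of the genes. The ratio test has the library as block and takes no replicate block.

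Leaving out 1 library gave 5 to 7 genes called relative to the bulk with DMDA-PatA (3098 to 4163 of all transcripts), 3 to 6 with harringtonine and 4 to 6 with puromycin. For the 5' UTR it gave 1882 to 2774 of all transcripts with DMDA-PatA, 1347 to 2558 with harringtonine, and 12 to 20 with puromycin, where 0 of the genes were called. Between drugs it gave 2727 to 3616 transcripts for DMDA-PatA against harringtonine and 1998 to 2651 for puromycin against harringtonine. With 1 library left in an arm, that library is assumed to vary like the others. Depth limits the 5' UTR of Klf2, Nr0b1, Esrrb, Tfcp2l1 and Pou5f1, and Klf4 after DMDA-PatA.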
